A study of Homo sapiens with 12 samples.

Results

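Aminoacyl-tRNA synthetases are the enzymes that load each amino acid onto its tRNA. This account follows 35 human genes for them, 19 for cytosolic enzymes and 16 for mitochondrial ones, among 67049 gene IDs counted in every library. The rule that lists them uses gene names only, and all 35 were found in all 12 libraries' tables. Genes whose symbol ends in 1 were counted as cytosolic, with EPRS1, FARSA and FARSB, and genes whose symbol ends in 2 as mitochondrial. KARS1 and GARS1 also supply the mitochondrial enzyme for lysine and glycine, and stand here with the cytosolic class.

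The study compared nuclear and cytoplasmic RNA of HEK293T cells, an established line from human embryonic kidney, 48 h after transient lipofection with the plasmid pIRES2-SF3B1 K700E or pIRES2-SF3B1 WT. The 4 groups were K700E cytoplasm, K700E nucleus, WT cytoplasm and WT nucleus, with 3 libraries each. SF3B1 belongs to the spliceosome's U2 particle, and K700E is a substitution recurrent in blood cancers. Both constructs are overexpressed from a plasmid in cells that keep their own SF3B1 gene, and no untransfected cells are analysed here, so the WT group is also a transfected one. The series title names inhibited mRNA export through a disturbed SF3B1-THOC5 interaction, so the question for these genes is whether their mRNA lies differently between nucleus and cytoplasm under K700E. Whether the 3 libraries of each group stem from separate cultures is not labelled, so p-values here measure spread among libraries that may be technical only.

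Protein synthesis runs in the cytosol and, separately, in mitochondria, and each compartment needs its own charged tRNAs. Both sets of enzymes are encoded in the nucleus, so every one of these mRNAs has to leave it. Several cytosolic enzymes form the multi-tRNA synthetase complex, held together by the scaffold proteins AIMP1, AIMP2 and EEF1E1 (also called AIMP3). Many cytosolic enzyme genes are known targets of ATF4, a transcription factor of the amino acid response, which binds C/EBP-ATF response elements. Defects in several mitochondrial enzymes cause inherited disease of brain, heart or ovary.

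Library totals ran from 13422598 to 18116929 counts in cytoplasmic and from 9086743 to 11200562 in nuclear libraries. MALAT1, NEAT1 and KCNQ1OT1, RNAs kept in the nucleus, fell in cytoplasmic against nuclear libraries under either construct, and 13 of 13 mRNAs of the mitochondrial genome rose. SF3B1 averaged 7924 ± 882 CPM (counts per 1000000, TMM-scaled; SD, n = 3) in K700E cytoplasm and 9430 ± 1061 CPM in WT cytoplasm. The 6 HEK293T markers (KRT8, KRT18, VIM, CDH2, PAX2 and NEFM) summed to 252 to 898 CPM per library. The 3 blood markers PTPRC, CD74 and LYZ summed to at most 2.19 CPM, and the 3 endothelial markers PECAM1, CDH5 and VWF to at most 0.965 CPM. The 4 fibroblast markers summed to 15.03 to 115 CPM, of which COL1A1 made up most, while DCN and LUM stayed under 1 CPM in all 12 libraries. Some libraries stood apart by base composition. In WT nucleus 2 the log2 level, against the mean of the nuclear libraries, rose by 0.515 per 10% of GC content over protein-coding genes, and in K700E nucleus 2 the slope was -0.375, while the other 4 nuclear libraries lay between -0.059 and 0.002. Nuclear results that turn on these 2 libraries are also given without them. In the cytoplasm the slopes were smaller, at 0.256 in K700E cytoplasm 3, -0.172 in K700E cytoplasm 2 and 0.182 in WT cytoplasm 3, and -0.128 to -0.046 in the other 3.

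A response element of the kind ATF4 binds was looked for in the promoters. RefSeq promoter windows on GRCh38.p14, 300 bases from 250 before the gene's start to 50 from the start on, were at hand for 30 of the 35 genes, 16 cytosolic and 14 mitochondrial. The sequence TGATGCAA, the form of the C/EBP-ATF response element searched here on both strands, was found in 6 of the 16 cytosolic genes and in 0 of the 14 mitochondrial ones, against 1.08% of 27305 genes with a window and 0.866% of all 35116 windows. A match is a description of these letters and shows no binding. The 6 matches are printed to show the element in its place, each as 30 bases on the strand of the gene with the 8 matching bases in capitals.
TARS1, chr5:33440956-33440985, plus strand: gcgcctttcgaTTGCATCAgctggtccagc
IARS1, chr9:92293692-92293721, minus strand: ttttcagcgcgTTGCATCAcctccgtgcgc
CARS1, chr11:3057407-3057436, minus strand: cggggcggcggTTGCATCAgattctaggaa
MARS1, chr12:57488053-57488082, plus strand: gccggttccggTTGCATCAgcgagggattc
AARS1, chr16:70289675-70289704, minus strand: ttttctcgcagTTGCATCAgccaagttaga
NARS1, chr18:57621804-57621833, minus strand: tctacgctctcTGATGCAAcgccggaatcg

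In 5 of the 6 the element read as its reverse complement on the gene's strand, and in NARS1 it read as written. In TARS1, IARS1, CARS1, MARS1 and NARS1 its first base lay between 13 bases before and 14 bases after a RefSeq start, and in AARS1 it lay 187 bases before. In the cytoplasm-against-nucleus comparisons described further on, these 6 genes did not share a direction: their log2 ratios ran from -0.74 in MARS1 to 0.89 in TARS1 with K700E, and from -1.15 to 1.11 in the same genes with WT.

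HARS1 and HARS2, the cytosolic and mitochondrial histidyl-tRNA synthetase genes, lie head to head on chromosome 5. Their RefSeq starts are parted by 84 bases on GRCh38.p14. The stretch is printed because these genes had unlike ratios of cytoplasm to nucleus from neighbouring starts. It is given on the plus strand with the first base of each transcript in capitals, HARS1 at the left, running to the left on the minus strand, and HARS2 at the right.
HARS1 and HARS2, chr5:140691370-140691455: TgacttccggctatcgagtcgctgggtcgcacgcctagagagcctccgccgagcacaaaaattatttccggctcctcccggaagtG

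The cytosolic enzyme genes were the more abundant class. Levels of different genes are compared as CPM per kb of exon, with the exons of all transcripts of a gene merged. Averaged over the 12 libraries, the median was 66.7 CPM per kb over the 19 cytosolic genes and 9.98 CPM per kb over the 16 mitochondrial genes. All class medians given here include VARS1 or both VARS2 and SARS2, which pull them down. The scarce counts of these genes, described further on, are not read as absent expression. GARS1 (glycyl-tRNA synthetase), SARS1 (seryl), TARS1 (threonyl) and IARS1 (isoleucyl) led at 124.5, 119, 118 and 116 CPM per kb. These 4 lay close together beside their spread in nuclei, where the SD reached 33.0 CPM per kb for TARS1 with K700E, while in WT cytoplasm IARS1 had 111 ± 7.05 CPM per kb and TARS1 158 ± 6.32 CPM per kb. Among mitochondrial genes IARS2 was the most abundant at 55.1 CPM per kb, in the range of the cytosolic genes, followed by RARS2 at 34.0 and TARS2 at 24.6 CPM per kb. At the low end, FARS2 (phenylalanyl) had 2.98 CPM per kb and CARS1 (cysteinyl, cytosolic) 2.47 CPM per kb. In each group the class medians kept that order: 72.9 against 12.3 CPM per kb in K700E cytoplasm, 65.2 against 5.66 in K700E nuclei, 86.9 against 14.1 in WT cytoplasm and 61.9 against 5.87 in WT nuclei, cytosolic before mitochondrial. Summed over each class, the cytosolic genes made up 7730 ± 760 CPM in K700E cytoplasm, 5739 ± 944 CPM in K700E nuclei, 7547 ± 197 CPM in WT cytoplasm and 5669 ± 806 CPM in WT nuclei (SD, n = 3). The mitochondrial genes made up 1039 ± 88.9, 717 ± 37.2, 1114 ± 13.5 and 781 ± 23.7 CPM in the same order. With library size alone in place of TMM, the cytosolic sum in WT was 6331 CPM in cytoplasm and 6822 CPM in nuclei, so its order turned. The cytosolic sum with K700E was then 6650 ± 642 CPM in cytoplasm and 6539 ± 728 CPM in nuclei. The mitochondrial sum was 934.5 ± 15.55 CPM in WT cytoplasm and 937.0 ± 59.37 CPM in WT nuclei, and 893.6 ± 76.03 and 822.6 ± 82.77 CPM with K700E.

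**Figure D1:**
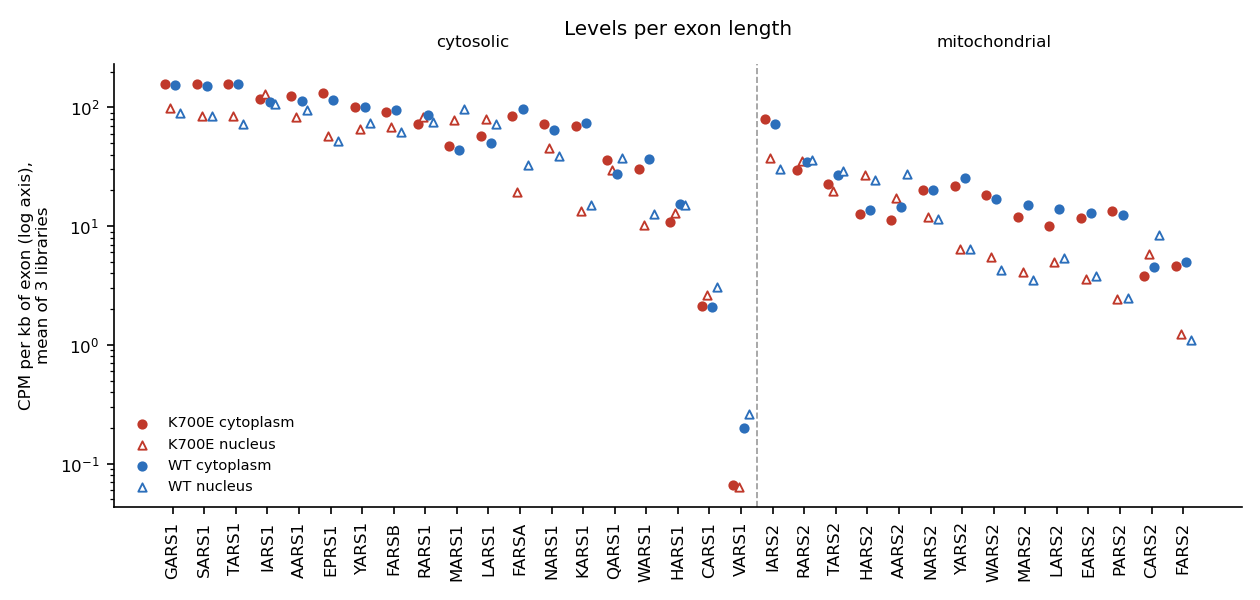
Mean level of 33 genes in each of the 4 groups, in CPM per kb of exon on a log axis, ordered by their mean over 12 libraries within the cytosolic and the mitochondrial class. Filled circles are cytoplasmic and open triangles nuclear groups. IARS2 reached 55.1 CPM per kb, the range of the cytosolic genes, and VARS1 lay far below the other cytosolic genes.

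Valyl-tRNA synthetase genes and SARS2 had next to no counts. SARS2 had 0 counts in all 12 libraries, which allows a level of up to 0.0198 CPM over their 151441327 counts (3 counts, counting error only). VARS2 had 1 count in all. VARS1, whose enzyme loads valine in the cytosol, had 131 counts, with 2, 5 and 9 in K700E cytoplasm, 9, 2 and 3 in K700E nuclei, 25, 4 and 17 in WT cytoplasm and 7, 45 and 3 in WT nuclei. The WT nuclear library with 45 counts is the one that rose with GC content, and VARS1 has 62.6% GC. The other 32 genes had 2199 to 126236 counts each. Neighbouring genes were low as well. The protein-coding genes within 200 kb had a median of 1 count over the 12 libraries around each of VARS1, VARS2 and SARS2, among them ACTN4, an actin-binding protein of most cells, with 5 counts. Around the other 32 genes that median ran from 32 to 25154 counts. Single neighbours were counted well, with up to 6586 counts around VARS1 and 7120 around SARS2. With most neighbours near 0, the values of these 3 genes are not read as absent expression, and the part played by alignment or annotation was not tested. SARS2 and VARS2 were not tested further, and 33 genes passed the filter on low counts.

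Between fractions, most of these genes had higher TMM-scaled levels in cytoplasmic than in nuclear libraries. A ratio of such levels is relative to the counts of each library, so it does not tell where most molecules of an mRNA lie. Of 19 cytosolic enzyme genes tested, 10 were higher and 2 lower in K700E cytoplasm than in K700E nuclei, and 9 were higher and 2 lower in WT cytoplasm than in WT nuclei (edgeR quasi-likelihood test over all genes, Benjamini-Hochberg adjusted p under 0.05). Of 14 mitochondrial enzyme genes, 9 were higher and 2 lower with K700E, and 9 were higher and 3 lower with WT. Over all 20394 genes tested, 28.0% were higher and 37.9% lower with K700E, and 27.0% and 40.0% with WT. Among 13901 protein-coding genes the shares were 36.5% and 27.3% with K700E, and 35.4% and 29.5% with WT. The median log2 ratio of cytoplasm to nucleus was 0.58 over the cytosolic and 1.03 over the mitochondrial genes with K700E, beside -0.28 over all and 0.19 over protein-coding genes. With WT it was 0.44 and 1.32, beside -0.38 and 0.13. The 8 cytosolic genes higher with both constructs were EPRS1, FARSA, GARS1, KARS1, NARS1, SARS1, TARS1 and WARS1, and LARS1 and MARS1 were lower with both. The 9 mitochondrial genes that were higher were the same with both constructs: EARS2, FARS2, IARS2, LARS2, MARS2, NARS2, PARS2, WARS2 and YARS2.

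These counts depend on the scaling and on single libraries. Of the cytosolic genes called higher, 4 of 10 with K700E and 5 of 9 with WT kept the call in all 24 other settings. NARS1 kept it in 14 with K700E and in 16 with WT. Without K700E nucleus 1 or K700E cytoplasm 1 the cytosolic genes called higher with K700E came to 6. With library size alone the median of all genes moved by -0.40 with K700E and by -0.50 with WT, the cytosolic genes called higher came to 4 with K700E and 5 with WT, and the cytosolic median with WT became -0.09. The mitochondrial genes called higher came to 7 with K700E and 8 with WT there. The mitochondrial median lay above the cytosolic one, and both above the median of all genes, in each of 25 settings run for each construct. Settings that only change the scaling move these medians nearly together, and a non-robust spread leaves them as they were. Such settings could hardly turn the order, so their agreement is no check of it. No test was made of the difference between the classes.

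**Figure D2:**
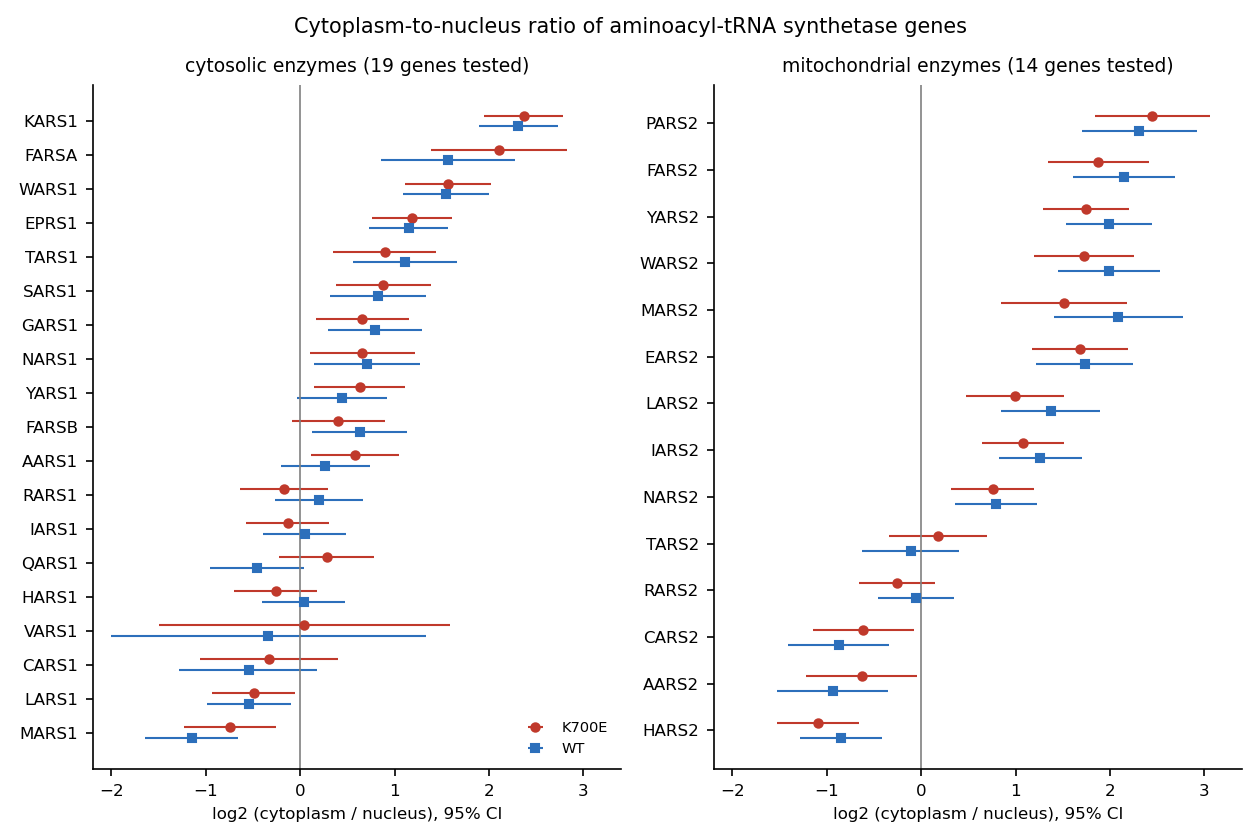
Log2 ratio of cytoplasm to nucleus of 33 genes with K700E (red circles) and WT (blue squares), with 95% confidence intervals from edgeR, cytosolic genes at the left and mitochondrial genes at the right. PARS2 and KARS1 had the largest ratios of their classes with each construct and MARS1 the smallest cytosolic one, while the smallest mitochondrial ratio was that of HARS2 with K700E and of AARS2 with WT; the intervals of both constructs overlap for each gene. Under library size alone all 33 ratios shift down, and FARSB, QARS1, VARS1 and TARS2 with K700E and AARS1, HARS1, IARS1, RARS1 and YARS1 with WT turn negative.

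KARS1 had the largest ratio among cytosolic genes. KARS1 (lysyl-tRNA synthetase, ENSG00000065427.15, chromosome 16, 75627474 to 75648643 on GRCh38, GENCODE 29) had 293, 289 and 270 CPM in K700E cytoplasm against 66.6, 47.3 and 50.4 CPM in K700E nuclei, and 307, 302 and 301 CPM in WT cytoplasm against 66.5, 62.0 and 54.9 CPM in WT nuclei. Every cytoplasmic library lay at least 4 times above every nuclear one. The log2 ratio was 2.37 ± 0.20 (SE; adjusted p = 1.03e-07) with K700E and 2.31 ± 0.20 (adjusted p = 1.3e-07) with WT. In the 24 other settings it ran from 1.95 to 2.59 with K700E and from 1.79 to 2.43 with WT.

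FARSA and WARS1 followed. FARSA (the alpha subunit of phenylalanyl-tRNA synthetase, ENSG00000179115.11, chromosome 19, 12922479 to 12934037) had 161, 162 and 295 CPM in K700E cytoplasm against 69.5, 34.0 and 39.1 CPM in K700E nuclei. In WT cytoplasm it had 215, 198 and 292 CPM, against 67.0, 117 and 53.8 CPM in WT nuclei. Replicate 3 was high in both cytoplasmic groups, the libraries with positive GC slopes, and the fractions did not overlap. The log2 ratio was 2.11 ± 0.34 (adjusted p = 5.99e-05) with K700E and 1.57 ± 0.34 (adjusted p = 0.000702) with WT. WARS1 (tryptophanyl-tRNA synthetase, a gene induced by interferon gamma) had 166, 187 and 220 CPM in K700E cytoplasm against 57.9, 59.4 and 76.1 CPM in K700E nuclei, and 237, 230 and 239 CPM in WT cytoplasm against 72.2, 102 and 67.7 CPM in WT nuclei. Its log2 ratio was 1.57 ± 0.22 (adjusted p = 1.14e-05) with K700E and 1.54 ± 0.22 (adjusted p = 1.27e-05) with WT.

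The beta subunit of the same phenylalanine enzyme was less one-sided. FARSB had 371, 287 and 263 CPM in K700E cytoplasm against 167, 294 and 235 CPM in K700E nuclei, and 344, 332 and 293 CPM in WT cytoplasm against 162, 244 and 220 CPM in WT nuclei. The fractions overlapped with K700E and did not with WT. The log2 ratio was 0.41 ± 0.24 (adjusted p = 0.139) with K700E and 0.63 ± 0.24 (adjusted p = 0.0262) with WT, and with library size alone it was -0.001 with K700E. The WT call was lost in 8 of 24 other settings, 3 of which left out a library (WT nucleus 1, WT cytoplasm 1 or WT cytoplasm 2). Per kb of exon, FARSB exceeded FARSA by most in nuclei, at 68.8 against 19.5 CPM per kb with K700E and 61.9 against 32.6 with WT, while in cytoplasm the values were 91.1 against 84.5 with K700E and 95.9 against 96.6 with WT. FARSA has 60.3% GC and FARSB 41.6%. Without the 2 nuclear libraries of strong GC trend the log2 ratios with K700E were 1.93 for FARSA and 0.62 for FARSB. With WT they were 1.97 and 0.77. Both genes had extreme nuclear values in those libraries, so such shifts follow from leaving them out.

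At the low end of the cytosolic class stood CARS1, LARS1 and MARS1. MARS1 (methionyl-tRNA synthetase, whose product starts every cytosolic protein chain, ENSG00000166986.15, chromosome 12, 57475445 to 57517569) had 351, 246 and 391 CPM in K700E cytoplasm against 546, 579 and 532 CPM in K700E nuclei. In WT cytoplasm it had 322, 292 and 311 CPM, against 589, 913 and 551 CPM in WT nuclei. All cytoplasmic libraries lay below all nuclear ones, with a log2 ratio of -0.74 ± 0.23 (adjusted p = 0.00915) with K700E and -1.15 ± 0.23 (adjusted p = 0.000403) with WT. Without K700E cytoplasm 2 the K700E ratio was -0.56 and no longer passed.

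LARS1 (leucyl-tRNA synthetase, also known as a leucine sensor upstream of mTORC1) had 543, 448 and 401 CPM in K700E cytoplasm against 494, 740 and 723 CPM in K700E nuclei, and 407, 409 and 397 CPM in WT cytoplasm against 513, 615 and 641 CPM in WT nuclei. The fractions overlapped with K700E and did not with WT. The log2 ratio was -0.49 ± 0.21 (adjusted p = 0.048) with K700E and -0.55 ± 0.21 (adjusted p = 0.0298) with WT. The K700E call was lost in 14 of 24 other settings and the WT call in 7. Leaving out K700E nucleus 2 or 3, K700E cytoplasm 2 or 3 or any WT library ended the K700E call, at log2 ratios of -0.36 to -0.48. Leaving out WT nucleus 2 or 3 or any WT cytoplasmic library ended the WT call, at -0.43 to -0.54. CARS1 had 19.4, 12.6 and 31.3 CPM in K700E cytoplasm against 32.8, 22.6 and 24.3 CPM in K700E nuclei, and 19.8, 15.4 and 27.5 CPM in WT cytoplasm against 25.7, 45.1 and 21.0 CPM in WT nuclei. Its groups overlapped and neither ratio passed the test (adjusted p = 0.415 with K700E and 0.17 with WT).

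Of the other fixed cytosolic genes, EPRS1 and GARS1 were higher in the cytoplasm. EPRS1, which joins the glutamyl and prolyl enzymes in 1 chain, had 795, 697 and 664 CPM in K700E cytoplasm against 268, 398 and 279 CPM in K700E nuclei, and 668, 618 and 618 CPM in WT cytoplasm against 292, 288 and 278 CPM in WT nuclei. The fractions did not overlap, with log2 ratios of 1.19 ± 0.20 (adjusted p = 8.59e-05) with K700E and 1.15 ± 0.20 (adjusted p = 0.000112) with WT. GARS1, whose mutations cause an inherited neuropathy, had 763, 583 and 600 CPM in K700E cytoplasm against 323, 559 and 351 CPM in K700E nuclei, and 681, 630 and 606 CPM in WT cytoplasm against 368, 435 and 304 CPM in WT nuclei. Its log2 ratio was 0.66 ± 0.23 (adjusted p = 0.0203) with K700E and 0.79 ± 0.23 (adjusted p = 0.0069) with WT. The call was lost under library size alone, upper quartile factors and the filter of 1 CPM in all 12 libraries with both constructs, and with K700E also with DESeq2 size factors, with TMM from protein-coding genes, and without K700E nucleus 1 or 3 or K700E cytoplasm 1.

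Members of the multi-tRNA synthetase complex were called in both directions. Of the 7 complex enzymes among these genes (EPRS1, IARS1, KARS1, LARS1, MARS1, QARS1 and RARS1), 2 were higher and 2 lower with each construct. Beside these stand 28.0% higher and 37.9% lower of all genes with K700E, and 27.0% and 40.0% with WT. The median log2 ratio of the complex enzymes was -0.13 with K700E and 0.05 with WT. Of the 12 cytosolic genes outside it, 8 were higher and 0 lower with K700E and 7 were higher and 0 lower with WT, with medians of 0.64 and 0.67. With library size alone, AARS1, GARS1, NARS1, SARS1, TARS1 and YARS1 of the 8 lost the K700E call. The difference between complex enzymes and the others was not tested. IARS1, the most abundant of the complex enzymes per kb, had log2 ratios of -0.13 ± 0.21 with K700E and 0.05 ± 0.21 with WT. Of the 3 scaffold genes, AIMP2 was higher in the cytoplasm with both constructs. It had 27.5, 34.5 and 59.4 CPM in K700E cytoplasm against 6.23, 2.33 and 5.06 CPM in K700E nuclei, and 58.4, 43.3 and 76.6 CPM in WT cytoplasm against 7.20, 5.70 and 5.28 CPM in WT nuclei. Its log2 ratio was 3.11 ± 0.37 (adjusted p = 2.58e-06) with K700E and 3.26 ± 0.37 (adjusted p = 1.55e-06) with WT, above that of any of the 33 synthetase genes. Exons of AIMP2 overlap those of EIF2AK1 on the other strand over 532 bases, and without a stated strand setting such reads cannot be assigned. EEF1E1 was lower with K700E at -0.82 ± 0.28 (adjusted p = 0.015) and had -0.32 ± 0.27 (adjusted p = 0.306) with WT, and AIMP1 passed in neither.

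Mitochondrial enzyme genes had the larger median ratio, and by the mean of both constructs PARS2, FARS2 and YARS2 came first. PARS2 (prolyl, ENSG00000162396.6, chromosome 1, 54756898 to 54764514) had 25.3, 28.6 and 41.3 CPM in K700E cytoplasm against 5.43, 6.13 and 5.50 CPM in K700E nuclei, and 26.3, 26.9 and 34.7 CPM in WT cytoplasm against 4.07, 7.81 and 5.55 CPM in WT nuclei. Replicate 3 was the highest of each cytoplasmic group, and the fractions were far apart, with a log2 ratio of 2.45 ± 0.29 (adjusted p = 2.45e-06) with K700E and 2.31 ± 0.29 (adjusted p = 4.2e-06) with WT.

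FARS2, the mitochondrial phenylalanyl enzyme and the longest of these genes at 568 kb, had 21.7, 20.1 and 24.7 CPM in K700E cytoplasm against 6.31, 5.36 and 6.11 CPM in K700E nuclei, and 23.0, 23.7 and 26.0 CPM in WT cytoplasm against 5.64, 6.403 and 3.91 CPM in WT nuclei. Its log2 ratio was 1.88 ± 0.25 (adjusted p = 9.61e-06) with K700E and 2.15 ± 0.26 (adjusted p = 2.63e-06) with WT. YARS2 (tyrosyl, linked to myopathy with lactic acidosis and anaemia) had 42.4, 48.6 and 49.2 CPM in K700E cytoplasm against 15.4, 14.3 and 11.9 CPM in K700E nuclei, and 53.4, 52.6 and 59.7 CPM in WT cytoplasm against 12.2, 12.98 and 16.1 CPM in WT nuclei. The spread within a group was small beside the gap, and the log2 ratio was 1.74 ± 0.22 (adjusted p = 3.97e-06) with K700E and 1.99 ± 0.22 (adjusted p = 1.08e-06) with WT. WARS2, MARS2 and EARS2 had log2 ratios of 1.51 to 1.73 with K700E and 1.74 to 2.09 with WT, and LARS2, IARS2 and NARS2 of 0.76 to 1.07 and 0.80 to 1.38. Exons of WARS2 overlap the antisense gene AL359915.2 over 180 bases, and that gene had 7894 counts beside 6571 for WARS2, so reads of the 2 may be mixed.

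HARS2, AARS2 and CARS2 had lower mean levels in cytoplasmic than in nuclear libraries. HARS2 (histidyl, linked to Perrault syndrome, ENSG00000112855.17, chromosome 5, 140691426 to 140699318) had 39.0, 45.8 and 56.6 CPM in K700E cytoplasm against 108, 97.6 and 97.3 CPM in K700E nuclei, and 52.2, 51.2 and 49.3 CPM in WT cytoplasm against 109, 77.6 and 88.6 CPM in WT nuclei. No cytoplasmic library reached a nuclear one of the same construct. HARS2 was 2.14-fold lower in the cytoplasm with K700E (log2 -1.10 ± 0.21, adjusted p = 0.000229) and 1.80-fold lower with WT (log2 -0.85 ± 0.21, adjusted p = 0.00176), and was called in all 24 other settings with each construct.

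Its head-to-head neighbour HARS1 did not differ in that way. HARS1 had 68.8, 82.9 and 103 CPM in K700E cytoplasm against 93.1, 86.9 and 125 CPM in K700E nuclei, and 122, 120 and 120 CPM in WT cytoplasm against 120, 108 and 124 CPM in WT nuclei. The fractions overlapped with both constructs, and the log2 ratio was -0.26 ± 0.21 (adjusted p = 0.277) with K700E and 0.04 ± 0.21 (adjusted p = 0.879) with WT, where it turned negative under 7 of 24 other settings. In GENCODE 29 the exons of HARS1 and HARS2 overlap over 437 bases, 11.7% of the exon length of HARS2, and HARS2 also shares 152 bases with ZMAT2. Reads from those stretches cannot be assigned without a stated strand setting.

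AARS2 (alanyl, linked to cardiomyopathy and leukoencephalopathy with ovarian failure) had 36.3, 41.3 and 66.6 CPM in K700E cytoplasm against 94.97, 45.8 and 83.2 CPM in K700E nuclei, and 62.9, 52.7 and 69.8 CPM in WT cytoplasm against 104, 137 and 115 CPM in WT nuclei. The fractions overlapped with K700E, through K700E nucleus 2 at 45.8 CPM, and were apart with WT. The log2 ratio was -0.63 ± 0.28 (adjusted p = 0.0548) with K700E and -0.94 ± 0.28 (adjusted p = 0.00727) with WT. Without K700E nucleus 2 and WT nucleus 2, a setting chosen after the data were seen, it was -0.88 (adjusted p = 0.00526) with K700E and -0.81 (adjusted p = 0.00843) with WT. These libraries held the lowest K700E and the highest WT nuclear value of AARS2, so both shifts follow from leaving them out. CARS2 (cysteinyl) had 27.6, 40.3 and 51.3 CPM in K700E cytoplasm against 65.8, 48.8 and 68.2 CPM in K700E nuclei, and 42.0, 46.5 and 54.6 CPM in WT cytoplasm against 73.8, 111 and 77.1 CPM in WT nuclei. Its log2 ratio was -0.61 ± 0.25 (adjusted p = 0.0416) with K700E and -0.87 ± 0.25 (adjusted p = 0.00626) with WT, and the K700E call was lost in 10 of 24 other settings, 9 of which left out a library.

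**Figure D3:**
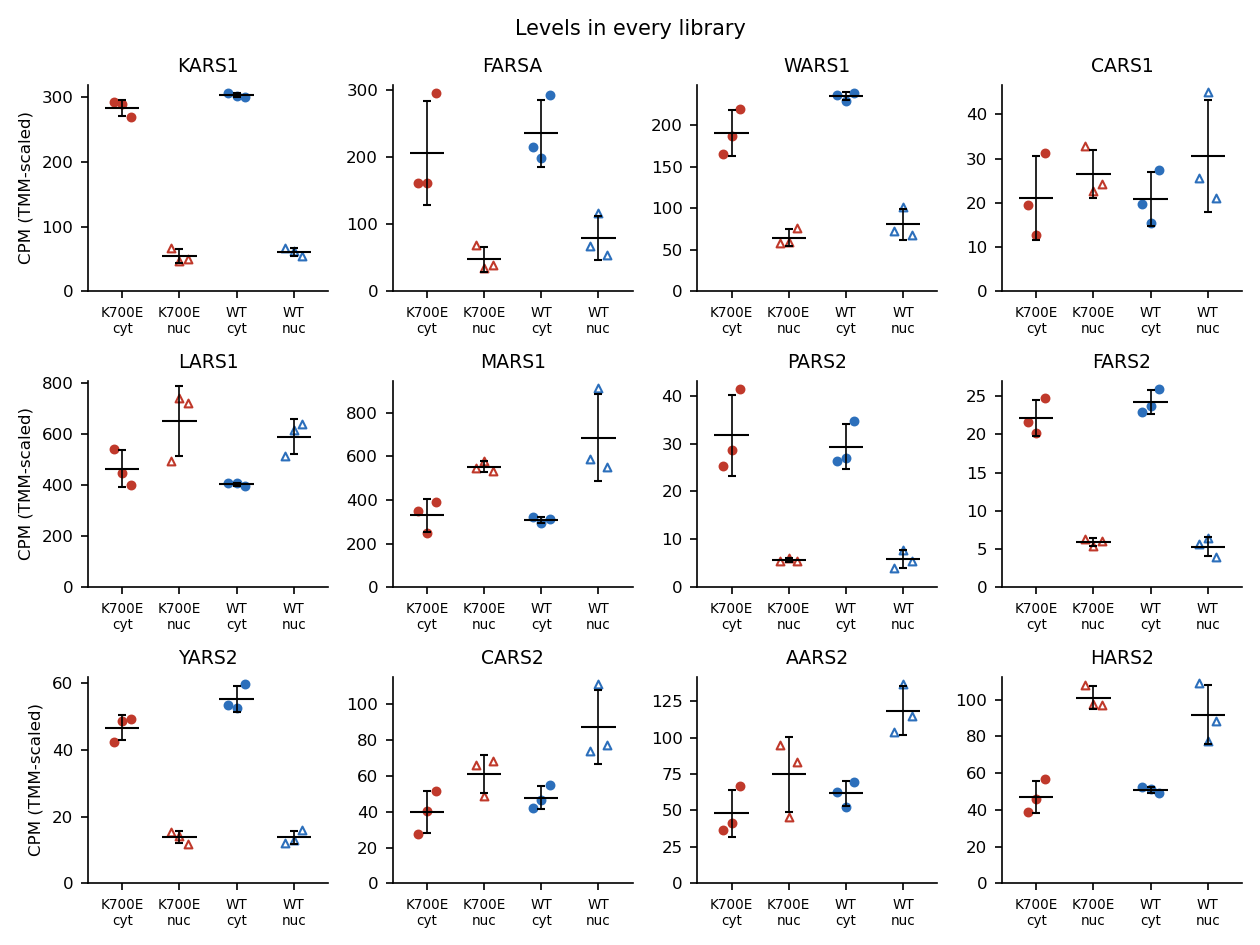
Level in CPM of each of the 3 libraries per group for the 3 genes with the largest and the 3 with the smallest mean ratio of each class, on linear axes that start at 0. Bars give the mean and SD (n = 3), filled circles are cytoplasmic and open triangles nuclear libraries. KARS1, WARS1, FARS2 and YARS2 show groups far apart, and CARS1 shows groups that overlap.

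Genes with longer exonic sequence tended to have lower ratios. Over the 33 genes, Spearman's rho between the log2 ratio and exon length was -0.41 with K700E and -0.44 with WT, beside -0.26 and -0.21 over 13892 protein-coding genes. With GC content it was -0.02 and -0.17, and with gene span 0.01 and 0.05. All points share the same 12 libraries, and members are not independent replicates. The classes had similar GC content, with medians of 48.6% in cytosolic and 51.2% in mitochondrial genes. Exons of several called genes overlap a gene on the other strand, by 176 bases with TERF2IP for KARS1, 287 with WDR25 for WARS1, 519 with ARHGAP9 for MARS1, 370 with UBFD1 for EARS2 and 326 with ING1 for CARS2. What share of their counts these stretches hold was not tested.

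Other genes of tRNA charging were divided. Of 15 tested accessory genes, 7 were higher and 4 lower with K700E, and 6 were higher and 3 lower with WT, beside the shares of all genes given above. EEF1A1, the elongation factor that carries charged tRNA to the ribosome, had log2 ratios of 3.75 ± 0.32 with each construct. DTD2 and DTD1, deacylases that clear D-amino acids or misloaded amino acids from tRNA, had 3.24 ± 0.56 and 2.92 ± 0.25 with K700E, and 3.13 ± 0.56 and 2.77 ± 0.25 with WT. QRSL1, GATB and GATC, the subunits of the amidotransferase that makes mitochondrial glutaminyl-tRNA, had 1.59, 1.60 and 1.37 with K700E and 1.46, 1.75 and 1.54 with WT, and each was called. AARSD1, an editing protein that resembles alanyl-tRNA synthetase, went the other way with -4.81 ± 0.35 (adjusted p = 3.22e-08) and -4.22 ± 0.33 (adjusted p = 6.38e-08). It had 1.03, 0.310 and 0.996 CPM in K700E cytoplasm against 23.6, 27.4 and 27.6 CPM in K700E nuclei, and 1.60, 1.495 and 1.63 CPM in WT cytoplasm against 27.3, 40.3 and 29.3 CPM in WT nuclei. AARSD1 shares 1267 exonic bases with the read-through gene PTGES3L-AARSD1 on the same strand, so its count depends on how shared reads were treated.

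Of 17 tested amino acid response genes, 12 were higher and 2 lower with K700E, beside 28.0% and 37.9% of all genes. With WT 8 were higher and 2 lower, beside 27.0% and 40.0% of all genes. No gene of this list passed for the change of ratio between constructs. TRIB3, CHAC1, SHMT2 and SLC3A2 were called with K700E only. In that edgeR test TRIB3, CHAC1 and SHMT2 had an adjusted p of 0.981 each, and SLC3A2 of 0.987. ATF4 itself had log2 ratios of 1.62 ± 0.21 with K700E and 1.65 ± 0.21 with WT, and MTHFD2, an enzyme of mitochondrial folate metabolism, 2.85 ± 0.27 and 2.62 ± 0.27. ASNS (asparagine synthetase) was lower in the cytoplasm at -4.46 ± 0.47 (adjusted p = 8.12e-07) with K700E and -4.89 ± 0.49 (adjusted p = 4.29e-07) with WT, and shares 1985 exonic bases with the transcript gene AC079781.5. DDIT3, which overlaps exons of MARS1 over 355 bases on the other strand, passed in neither.

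Between constructs, no synthetase gene differed past the threshold. In nuclei 0 of 33 genes were called for K700E against WT, beside 0.0% of 20394 genes in each direction, and 3 of 33 had an unadjusted p under 0.05, beside 6.71% of all genes. In a DESeq2 Wald test 0 of 33 were called as well. The median log2 difference was -0.16 over cytosolic and -0.01 over mitochondrial genes, beside -0.05 over all genes. Without WT nucleus 2 the cytosolic median was 0.07 and the mitochondrial one -0.05, so neither the sign nor the order of the classes held. The smallest p values were those of AARS2, FARSA and TARS2. AARS2 had 94.97, 45.8 and 83.2 CPM in K700E nuclei against 104, 137 and 115 CPM in WT nuclei (log2 -0.66 ± 0.28, adjusted p = 0.663). TARS2 (threonyl, mitochondrial) had 85.7, 68.2 and 90.01 CPM in K700E nuclei against 92.9, 165 and 95.8 CPM in WT nuclei (log2 -0.54 ± 0.25, adjusted p = 0.663). FARSA, with the nuclear values given above, had -0.74 ± 0.33 (adjusted p = 0.663). AARS2, TARS2 and CARS2 were lower in every K700E than in every WT nuclear library, 3 of 33 genes, beside 4.88% of all genes, and 0 of 33 were higher in every one, beside 3.92%.

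In nuclei, genes of higher GC content had lower K700E-to-WT differences. AARS2 has 59.3%, FARSA 60.3% and TARS2 54.6% GC, K700E nucleus 2 was the lowest and WT nucleus 2 the highest library for each, and those 2 libraries have the opposite GC trends described above. Over the 33 genes Spearman's rho between the nuclear log2 difference and GC content was -0.77, beside -0.71 over 13892 protein-coding genes. Without these 2 libraries, a setting chosen after the data were seen, the differences were -0.29 for AARS2, -0.15 for FARSA and -0.10 for TARS2; since each had its extreme values in these libraries, smaller differences follow from leaving them out and say nothing on GC content. VARS1, the gene with the most negative value in the plot against GC content, rests on the few counts given above.

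**Figure D4:**
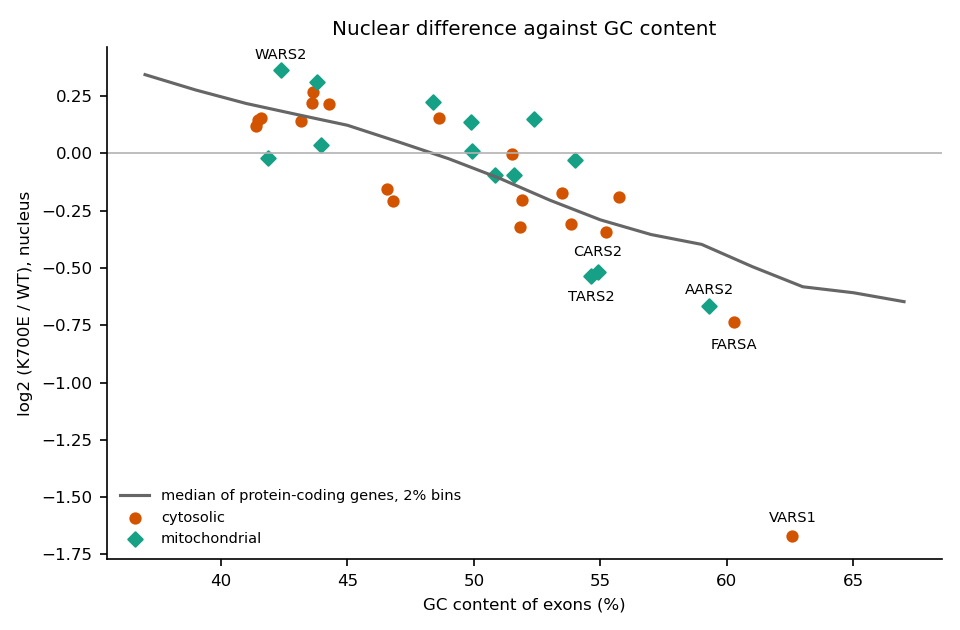
Log2 difference of K700E against WT in nuclei for 33 genes (cytosolic, orange circles, and mitochondrial, green diamonds). The horizontal axis is GC content in percent, over the exons of each gene's longest transcript. The grey line is the median of protein-coding genes in bins of 2% GC, and the synthetase genes run down along it, with AARS2, FARSA and VARS1 at the GC-rich end.

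In the cytoplasm 0 of 33 genes were called, beside 0.0049% of all genes called higher and 0.0% lower, and 1 of 33 had an unadjusted p under 0.05, beside 4.54% of all genes. DESeq2's Wald test also called 0. The median log2 difference was 0.02 over cytosolic and -0.18 over mitochondrial genes, of which 11 of 14 lay below 0, beside 0.00 over all genes. Without K700E cytoplasm 1 these medians were -0.05 and -0.08. The 13 mRNAs of the mitochondrial genome were all below 0 as well, with a median of -0.90, 10 at an unadjusted p under 0.05 and 0 called. Of these, MT-CO1 had 2076, 2312 and 2599 CPM in K700E cytoplasm against 5771, 3750 and 1412 CPM in WT cytoplasm. The part of mitochondrial RNA content in the medians was not tested. The 3 smallest p values belonged to HARS1, LARS2 and QARS1. HARS1 had 68.8, 82.9 and 103 CPM in K700E cytoplasm against 122, 120 and 120 CPM in WT cytoplasm, where the WT libraries lay close together and above every K700E library (log2 -0.51 ± 0.21, adjusted p = 1). LARS2 (leucyl, mitochondrial) had 46.2, 79.6 and 78.6 CPM in K700E cytoplasm against 104, 91.6 and 89.1 CPM in WT cytoplasm (log2 -0.48 ± 0.24, adjusted p = 1). QARS1 (glutaminyl) had 165, 137 and 204 CPM in K700E cytoplasm against 107, 126 and 152 CPM in WT cytoplasm (log2 0.39 ± 0.24, adjusted p = 1), and these groups overlapped. HARS1, KARS1, WARS1, LARS2 and YARS2 were lower in every K700E than in every WT library, 5 of 33 genes, beside 6.99% of all genes, and none was higher in every one, beside 6.59%. For KARS1 the difference was -0.09 with a 95% interval from -0.49 to 0.31, and for WARS1 -0.30 from -0.74 to 0.14.

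**Figure D5:**
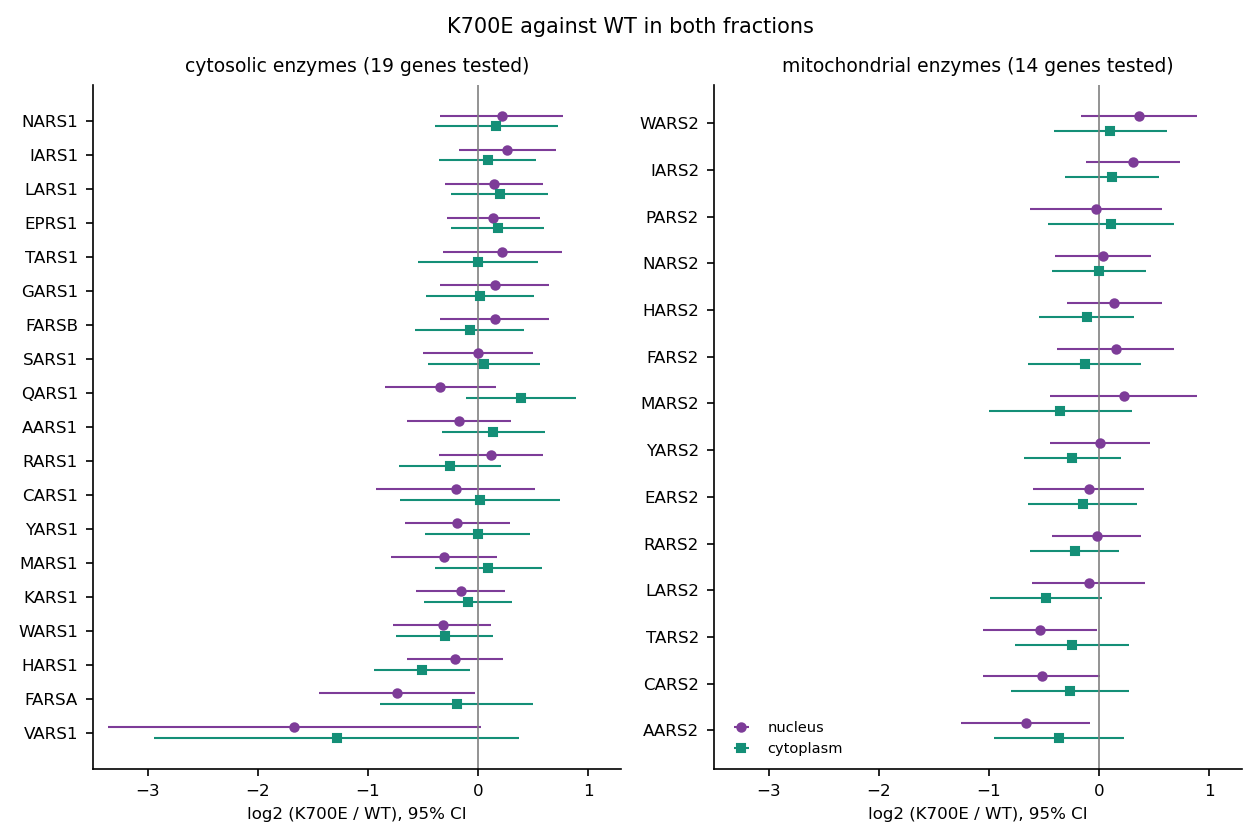
Log2 difference of K700E against WT for 33 genes in nuclei (purple circles) and cytoplasm (green squares), with 95% confidence intervals from edgeR that are not adjusted for the number of genes. Intervals of AARS2, FARSA and TARS2 in nuclei and of HARS1 in cytoplasm leave out 0 narrowly, and none of these genes passed the test over all genes.

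The ratio of cytoplasm to nucleus changed past the threshold for 0 of 33 genes between K700E and WT, beside 0.0% of all genes in each direction, and 1 of 33 had an unadjusted p under 0.05, beside 3.28%. The median change of the log2 ratio was 0.05 over cytosolic and -0.19 over mitochondrial genes, beside 0.05 over all genes. The cytosolic value was -0.17 without WT nucleus 2, with -0.12 for mitochondrial genes, -0.07 without K700E nucleus 1 and -0.05 without K700E cytoplasm 1. Over the 33 genes Spearman's rho between this change and GC content was 0.67, beside 0.58 over 13892 protein-coding genes. The part of GC content in the change was not tested. QARS1 had the smallest p: its log2 ratio was 0.28 ± 0.24 with K700E and -0.46 ± 0.24 with WT, a difference of 0.74 ± 0.33 (adjusted p = 0.981). Without the 2 nuclear libraries of strong GC trend that difference was 0.38. QARS1 had its lowest K700E and highest WT nuclear value in those libraries, so a smaller difference follows from leaving them out. MARS2 (methionyl, mitochondrial, a gene without introns) had 32.0, 31.9 and 43.8 CPM in K700E cytoplasm against 15.02, 13.99 and 8.37 CPM in K700E nuclei, and 46.1, 41.2 and 50.2 CPM in WT cytoplasm against 15.7, 5.88 and 10.4 CPM in WT nuclei. The difference in its log2 ratio was -0.57 ± 0.44 and that of MARS1 0.41 ± 0.32 (adjusted p = 0.981 for each), and without the same 2 libraries these were -0.20 and 0.17. The interval for the change ran from -0.50 to 0.63 for KARS1 and from -0.55 to 0.63 for EPRS1 on the log2 scale. For FARSA it was wider, from -0.44 to 1.53. These intervals are for TMM-scaled ratios and rest on spread among libraries that may be technical only. A change of ratio shared by most genes was not tested, since the scaling would remove it. The comparisons of K700E with WT and of the fractions share libraries, so their values stand side by side and are not independent of each other.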

How the data were processed

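Nuclear and cytoplasmic RNA of transfected HEK293T cells was extracted with Trizol and made into libraries with a NEBNext Ultra kit, per the labels' protocols. The authors deposited whole-number counts per gene, 1 file per library, with 67049 IDs each, and HISAT2 and DESeq are named without versions in the submitters' processing notes. For the counting program, strand setting, build and annotation, nothing was stated (not given in the sources used here).

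IDs were matched to gene symbols and to GENCODE 29 on GRCh38, whose coordinates, exon lengths and GC content are used (58440 IDs, 99.7% of counts). GC content is that of each gene's longest transcript, while exon length is that of the merged exons of all its transcripts. No row lacked a gene ID and no 2 libraries were identical. Tests used edgeR 4.0.16 (R 4.3.3): quasi-likelihood F tests with a robust spread, 1 term per group, all 12 libraries, TMM scaling, filterByExpr (minimum count 10, minimum total 15; 20394 genes left), prior count 2 and Benjamini-Hochberg adjustment over all genes tested. Intervals are 95%. Alternatives were DESeq2 1.42.0 size factors and Wald test, library size alone, upper quartile factors, TMM from protein-coding genes, other filters, 6 libraries at a time, blocks by replicate number, and each library left out, and, added after seeing the data, a non-robust spread and leaving out the 2 nuclear libraries with the strongest GC trends. The script was tested on simulated data. Promoter windows are RefSeq's (GRCh38.p14).

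The members and lists were chosen with earlier results of these data known. Values in every library are given for the 3 largest and 3 smallest mean ratios of each class, for the 3 smallest p where no gene was called, for 7 fixed genes (FARSA, FARSB, EPRS1, GARS1, KARS1, HARS1 and HARS2), and for called examples of the other lists. Reads carry no molecular identifiers, so limits from a count of 0 cover counting error only.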

Additional observations from a re-analysis of the deposited data

How the results depend on the processing

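The cytosolic genes called higher with K700E (10) came to 6 with DESeq2 size factors in edgeR and with TMM from protein-coding genes, and to 4 with library size alone, upper quartile factors and a floor of 1 CPM in every library; with one library left out they ran from 6 to 11. Those called lower (2) came to 5 with library size alone, 4 with upper quartile factors, and 1 with no filter beyond 1 count and without the 2 nuclear libraries of strong GC trend, and ran from 0 to 2 with one library left out. Mitochondrial genes called lower with K700E (2) came to 4 with library size alone, upper quartile factors, TMM from protein-coding genes and the 1 CPM filter, to 1 with no filter, and ran from 1 to 3 with one library left out. With WT, cytosolic genes called higher (9) came to 5 with library size alone, upper quartile factors and the 1 CPM filter. Cytosolic genes called lower with WT (2) came to 5 with library size alone, 4 with upper quartile factors and the 1 CPM filter, and 1 with no filter, and ran from 1 to 2 with one library left out. Mitochondrial genes called lower with WT (3) came to 5 with library size alone. Mitochondrial genes called higher stayed between 7 and 9 with K700E and between 8 and 9 with WT over 24 settings. No synthetase gene was called for K700E against WT, or for the difference in ratio, under 23 settings. Over all genes the most calls there were 23 higher and 25 lower of 42964, in the cytoplasm with no filter beyond 1 count. The cause of the moves in the counts was not tested.

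The log2 ratio of FARSB with K700E was -0.001 with library size alone. That of HARS1 with WT was -0.032 with DESeq2 size factors and in its Wald test, -0.48 with library size alone, -0.335 with upper quartile factors, -0.134 with TMM from protein-coding genes, -0.281 with the 1 CPM filter and -0.007 without the 2 nuclear libraries. Over all settings, 898 values of named genes kept direction and call, 51 lost the call, 18 gained it and 8 turned. With library size alone, cytosolic summed levels were 6650 CPM in K700E cytoplasm, 6331 CPM in WT cytoplasm and 6822 CPM in WT nuclei; mitochondrial ones were 893.6 CPM in K700E cytoplasm, 822.6 CPM in K700E nuclei, 934.5 CPM in WT cytoplasm and 937.0 CPM in WT nuclei.

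Deviations of libraries with the same replicate number correlated between -0.249 and 0.427 over all pairs of groups. Between constructs in the same fraction these values were all positive, at 0.427, 0.063 and 0.199 in nuclei and 0.027, 0.157 and 0.343 in cytoplasm. Libraries with different numbers ran there from -0.326 to 0.129 in nuclei and from -0.281 to 0.173 in cytoplasm. Deviations were taken from the mean of each group, so values of like and unlike numbers depend on each other by construction. The main fit has no block, and a batch shared by number was not tested. A replicate block by number left 1 cytosolic gene called lower with K700E, against 2 without the block, and a block by construct and number left 1 with K700E and 1 with WT. Neither block moved another count by over 1.5 times; the block by construct and number cannot give K700E against WT, and the fit on 6 libraries cannot give the difference in ratio.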
